A study of Mus musculus with 12 samples.

Results

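This account covers 6 genes that have been reported as targets of the microRNA miR-29: Hdac4, Nav3, Bace1, Pik3r1, Calm3 and Vdac1. They were taken by name from a table of 12145 genes measured by RNA sequencing in mouse cortical cultures, and all 6 passed the filter on low counts that kept 12119 genes. The cultures came from the cortex of C57BL6 embryos aged E16.5-E17.5. On day 6 in vitro they received a lentivirus that carried miR-29c, or an empty lentivirus, in 2 infections at a multiplicity of 1 each. On day 14 they were exposed to oxygen-glucose deprivation (OGD), a culture model of ischemia in which cells are held without oxygen and glucose, for 3 h and then left to recover for 4 h. Sham cultures had their buffer changed and stayed in normal oxygen. There were 2 usable libraries of sham cultures with the empty virus (sham-empty), and 3 each of sham cultures with miR-29 virus (sham-miR-29), OGD cultures with the empty virus (OGD-empty) and OGD cultures with miR-29 virus (OGD-miR-29). Every culture, controls included, carried a lentivirus, and the sources used here do not name the promoter of the construct. The column labelled sham-empty replicate 3 did not hold read counts and was not used. Replicate numbers stand for days of dissection, so that each replicate is a separate culture preparation.

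MicroRNAs guide Argonaute proteins to messenger RNAs by pairing of a short seed at their 5′ end, usually with a matching site in the 3′ untranslated region (UTR), and the bound messenger is repressed or degraded. The miR-29 family rises as neurons mature and is known for repressing DNA methyltransferases, extracellular matrix genes and pro-apoptotic BH3-only genes. The 6 genes have varied roles. Hdac4 encodes a class IIa histone deacetylase that represses MEF2 transcription factors, Nav3 a neuron navigator protein of growing axons, and Bace1 the beta-secretase that cuts the amyloid precursor protein. Pik3r1 encodes the regulatory subunit p85-alpha of phosphoinositide 3-kinase, Calm3 a calmodulin, the calcium sensor of the cell, and Vdac1 the main voltage-dependent anion channel of the outer mitochondrial membrane.

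The mature miR-29 sequences are shown first because the predicted sites in the 6 genes follow from them. Capitals mark the seed, bases 2 to 8 counted from the 5′ end, in sequences from RefSeq (GRCm38.p6). The seed AGCACCA is the same in all 3 members of the family.
miR-29a: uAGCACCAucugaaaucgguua
miR-29b: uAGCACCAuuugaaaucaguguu
miR-29c: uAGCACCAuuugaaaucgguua
The letters TGGTGCT, the reverse complement of this seed, were searched on the sense strand in the longest annotated 3′ UTR of each gene (GENCODE M21, GRCm38). Of the 10089 genes of the table with an annotated 3′ UTR, 16.8% hold at least 1 such site and 3.53% hold the longer match TGGTGCTA. In the sites below, capitals mark the match.
Hdac4, chr1:91933256-91933277, minus strand: cctgcgtcctgcctTGGTGCTc
Hdac4, chr1:91932945-91932966, minus strand: aacttgattaaaacTGGTGCTt
Nav3, chr10:109683650-109683671, minus strand: tcctttgtgccacaTGGTGCTg
Nav3, chr10:109683283-109683304, minus strand: aggaacattttctaTGGTGCTg
Nav3, chr10:109682236-109682257, minus strand: ttaggagatatcatTGGTGCTA
Bace1, chr9:45862019-45862040, plus strand: ccttgccctcgcacTGGTGCTg
Pik3r1, chr13:101684502-101684523, minus strand: gaggcctttaaccaTGGTGCTt
Calm3, chr7:16916128-16916149, minus strand: gttctgtaaataccTGGTGCTA
Thus 5 of the 6 genes hold 1 to 3 of these matches. The 874-nt annotated 3′ UTR of Vdac1 holds 0, and it also holds 0 copies of the 6 letters GGTGCT that pair with bases 2 to 7, which 35.6% of the genes with a 3′ UTR do. A match is a description of the sequence and not a measured binding site. The 11 libraries do not report the level of miR-29 itself: 0 rows of the table have a symbol that starts with Mir29.

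The genes differ widely in length. Nav3 spans 774.9 kb on chromosome 10 (109681259 to 110456204) and is longer than 99.2% of the genes matched to the annotation. Hdac4 spans 266.9 kb on chromosome 1 (91928779 to 92195699), longer than 95.0%, and Pik3r1 87.7 kb on chromosome 13 (101680563 to 101768217), longer than 81.9%. Vdac1 covers 28.5 kb on chromosome 11 (52360860 to 52389397) and Bace1 25.8 kb on chromosome 9 (45838580 to 45864399), both near the middle. Calm3, the shortest of the 6, covers 8.7 kb on chromosome 7 (16915379 to 16924114), and 27.9% of the genes are shorter.

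Depth was low, and some rows share reads. The 11 libraries summed to 1337564 to 6616920 counts. Rows of the mitochondrial genome took 57.6% of the counts in OGD-empty replicate 2. They took 76.4% and 73.1% in OGD-empty replicates 1 and 3, and 74.1% to 84.1% in the other groups. Bace1 had 17 to 222 counts a library, Hdac4 25 to 228, and Calm3 212 to 1718. Whether intronic reads were counted was not given in the sources used here. A host gene held at least the count of a gene nested in its intron in all 11 libraries for 447 of 449 same-strand pairs (99.6%) and for 187 of 216 opposite-strand pairs (86.6%). Neuron markers were present, 8 of 8 listed, with a summed level of 1090 to 1330 CPM in OGD-empty and 703 to 1030 CPM in the other 3 groups. CPM are counts scaled to a library size of 1000000, after each library size was adjusted by the TMM method of edgeR. The astrocyte list, with 5 of 6 genes in the table and Gfap not analysed here, summed to 35.2 to 57.6 CPM in OGD-empty and 36.8 to 54.2 CPM in the others. The microglia list, with 3 of 6 genes in the table, summed to 18.8 to 28.0 CPM in OGD-empty and 28.1 to 40.8 CPM in the others, and the oligodendrocyte lineage list, with 3 of 7, to 8.58 to 9.73 and 9.62 to 14.6 CPM. Of the endothelial markers 0 of 4 and of the fibroblast markers 2 of 4 were analysed, the latter at 2.98 to 9.26 CPM. In bulk RNA, a change in the share of a cell type and a change in RNA per cell cannot be told apart.

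The 6 genes were selected with results of these data known. Earlier results had named Hdac4 and Nav3 from the contrast of the 2 viruses after OGD, and Bace1 from the contrast of OGD with sham under the empty virus, so the values of those contrasts, and of their difference, are given here as a description with no test. Tests are given for the virus effect in sham cultures and for the OGD effect in cultures with miR-29 virus. The first shares the sham-empty libraries, and the second the OGD-miR-29 libraries, with contrasts that chose genes. These tests are therefore not independent of the choice of Hdac4, Nav3 and Bace1. Adjusted p-values are from edgeR's quasi-likelihood test with Benjamini-Hochberg adjustment over all 12119 genes. Genes below an adjusted p of 0.05 count as called.

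Hdac4, the MEF2 repressor, was high in OGD-empty cultures and low in OGD-miR-29 cultures. It measured 24.9 and 19.7 CPM in the sham-empty libraries and 20.5, 38.0 and 21.6 CPM in sham-miR-29. After OGD it stood at 35.2, 66.8 and 38.6 CPM with the empty virus, and at 16.2, 18.1 and 13.5 CPM with miR-29 virus. All 3 OGD-miR-29 libraries lay below all other libraries, while the highest sham-miR-29 library, replicate 2, fell inside the range of OGD-empty. Group means were 22.3 ± 3.67 (SD, n = 2), 26.7 ± 9.84, 46.9 ± 17.4 and 15.9 ± 2.34 CPM (n = 3 each) in the 2 sham groups and the 2 OGD groups, with the empty virus first in each pair.

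Nav3, the axonal navigator, followed the same order. It measured 22.9 and 19.1 CPM in sham-empty and 23.9, 31.5 and 22.4 CPM in sham-miR-29. In OGD-empty it measured 29.8, 57.4 and 32.2 CPM, and in OGD-miR-29 17.1, 16.9 and 15.4 CPM. The OGD-miR-29 libraries were again the lowest of all 11, with a mean of 16.47 ± 0.942 CPM against 39.8 ± 15.3 CPM in OGD-empty. The sham groups overlapped each other, at 21.0 ± 2.67 and 25.9 ± 4.9 CPM. For both genes OGD-empty replicate 2 was the highest library by a wide margin. That library also had the lowest mitochondrial share of all 11, at 57.6%, and a link between these was not tested.

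Bace1, the beta-secretase gene, was highest in OGD-empty, with little spread there. Its row can hold reads of the overlapping gene Rnf214, and that of Calm3 reads of its neighbour Ptgir, as described further on. It measured 16.9 and 15.0 CPM in sham-empty, 20.1, 25.4 and 20.1 CPM in sham-miR-29, 34.3, 32.5 and 31.6 CPM in OGD-empty, and 21.3, 16.54 and 14.4 CPM in OGD-miR-29. All 3 OGD-empty libraries stood above the other 8. The OGD-miR-29 mean was 17.4 ± 3.53 CPM and the sham-empty mean 16.0 ± 1.32 CPM, and the ranges of these groups overlapped.

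Pik3r1, the PI3-kinase regulatory subunit gene, lay lower with miR-29 virus than with the empty virus in both treatments. With the empty virus it measured 42.8 and 36.5 CPM in sham and 38.1, 41.5 and 40.7 CPM after OGD. With miR-29 virus it measured 36.0, 31.1 and 25.2 CPM in sham and 28.3, 18.1 and 26.4 CPM after OGD. All 6 miR-29 libraries lay below all 5 empty-virus libraries, the nearest pair being 36.0 and 36.5 CPM. Group means were 39.6 ± 4.46, 30.8 ± 5.42, 40.1 ± 1.78 and 24.3 ± 5.42 CPM in the order used above.

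Calm3, the calmodulin gene, and Vdac1, the mitochondrial channel gene, ran the other way, lowest in OGD-empty and highest in OGD-miR-29. Calm3 measured 211 and 297 CPM in sham-empty, 309, 240 and 335 CPM in sham-miR-29, 146, 158 and 182 CPM in OGD-empty, and 316, 383 and 412 CPM in OGD-miR-29. The 3 OGD-empty libraries were the lowest of the 11, and the other groups overlapped in part. Vdac1 measured 107 and 96.7 CPM in sham-empty, 87.6, 87.6 and 105 CPM in sham-miR-29, 70.3, 65.5 and 65.9 CPM in OGD-empty, and 106, 119 and 142 CPM in OGD-miR-29. Its OGD-empty mean of 67.2 ± 2.64 CPM was below every library of the other groups, and the OGD-miR-29 mean was 123 ± 18.4 CPM.

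**Figure D1:**
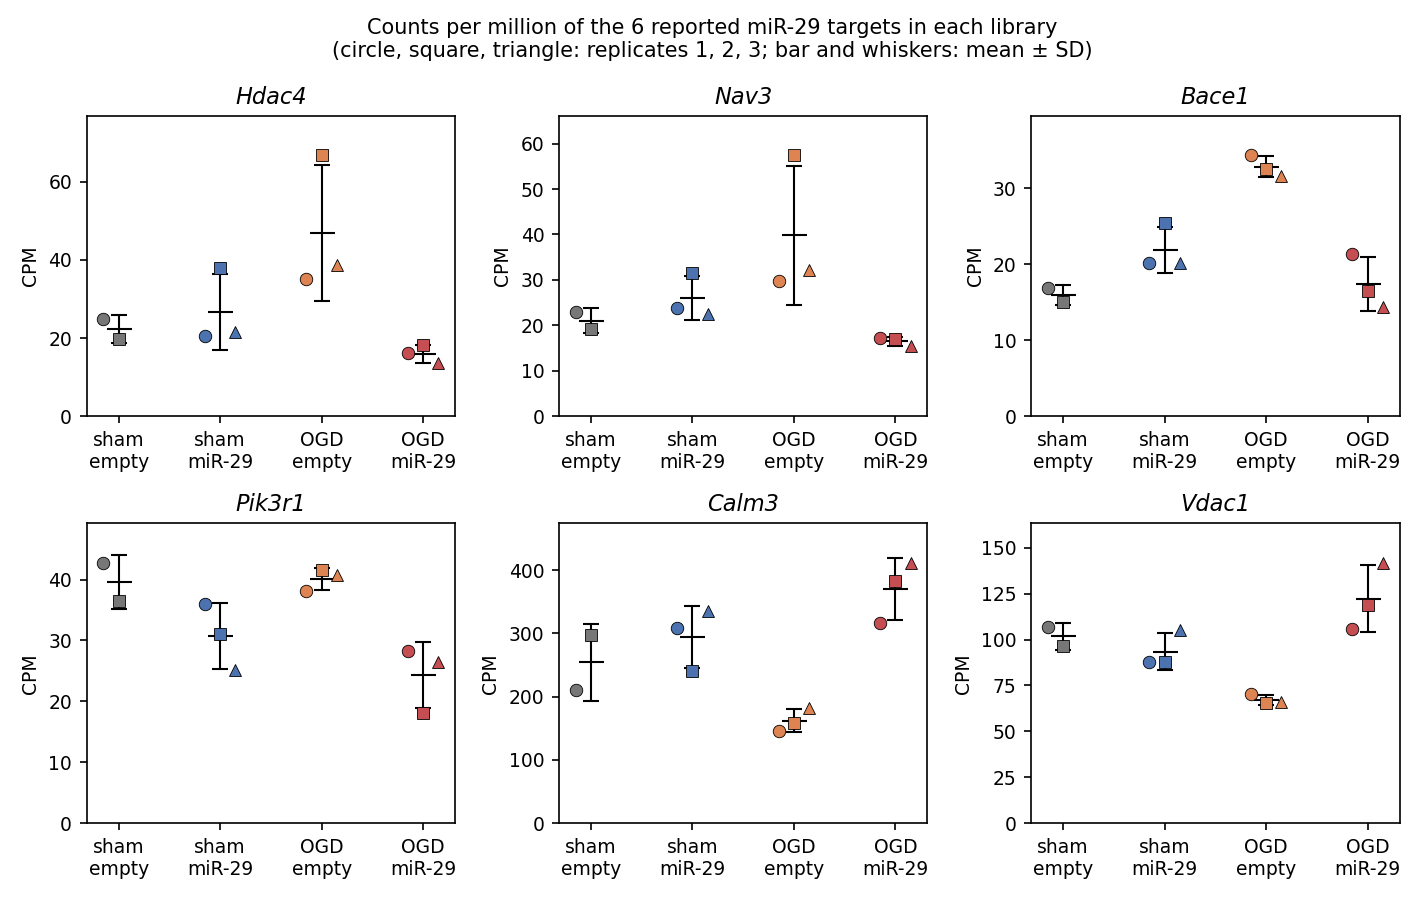
CPM (vertical axes, starting at 0) of the 6 genes in each of the 11 libraries by group, with circles, squares and triangles for replicates 1, 2 and 3 and bars for the mean ± SD. Hdac4, Nav3 and Bace1 peak in OGD-empty, Calm3 and Vdac1 are lowest there, and Pik3r1 is lower in both miR-29 groups.

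Between neighbouring groups in each gene's order of means, the ranges of the libraries did not overlap at 1 step for each gene. For Hdac4 and Nav3 that step lay between OGD-miR-29 and sham-empty, with ratios of the means of 1.4 and 1.27. For Bace1 it lay between sham-miR-29 and OGD-empty (1.5), for Pik3r1 between sham-miR-29 and sham-empty (1.29), for Calm3 between OGD-empty and sham-empty (1.57) and for Vdac1 between OGD-empty and sham-miR-29 (1.39). At the remaining steps neighbouring groups shared part of their range. What share of all genes has such a step without overlap is not given here.

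In sham cultures, miR-29 virus gave no called difference in any of the 6 genes. The log2 fold changes against empty virus were 0.27 ± 0.34 (SE) for Hdac4, 0.31 ± 0.30 for Nav3, 0.46 ± 0.27 for Bace1, -0.36 ± 0.24 for Pik3r1, 0.21 ± 0.24 for Calm3 and -0.12 ± 0.21 for Vdac1. Each had an adjusted p of 1.0 in edgeR's quasi-likelihood test. Of the genes with sites, only Pik3r1 had a negative value, lower on both days that had a sham-empty library (-0.24 and -0.22). Over all genes 0% were called, 405 of 12119 had an unadjusted p under 0.05, and DESeq2 and limma-voom also called 0. The standard errors of 0.21 to 0.34, with 2 sham-empty libraries, limit how small a difference could be detected. With each library of these groups left out in turn, the values ran from -0.04 to 0.45 for Hdac4, 0.17 to 0.45 for Nav3, 0.36 to 0.55 for Bace1, -0.47 to -0.23 for Pik3r1, 0.01 to 0.51 for Calm3 and -0.22 to -0.03 for Vdac1. The lowest values of Hdac4 and Nav3 came without sham-miR-29 replicate 2, so that the direction for Hdac4 rested on that library. The lowest and highest values of Calm3 came without sham-empty replicate 1 and without sham-empty replicate 2.

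In cultures with miR-29 virus, OGD gave 0 called differences among the 6 genes. The values of Hdac4, Nav3, Pik3r1 and Bace1 were negative and those of Vdac1 and Calm3 positive. Hdac4 differed by -0.73 ± 0.28 on the log2 scale (edgeR adjusted p = 0.486) and Nav3 by -0.64 ± 0.25 (adjusted p = 0.488), both lower on 3 of 3 days and without overlap of the groups. With 1 library left out in turn, Hdac4 ran from -0.87 to -0.38 and Nav3 from -0.74 to -0.47, with the values nearest 0 without sham-miR-29 replicate 2. Pik3r1 (-0.32 ± 0.21, adjusted p = 0.637) and Bace1 (-0.29 ± 0.21, adjusted p = 0.662) were each lower on 2 of 3 days, with overlap. Vdac1 was at 0.39 ± 0.18 (adjusted p = 0.54), higher on 3 of 3 days and without overlap, and Calm3 at 0.33 ± 0.21 (adjusted p = 0.637), also higher on 3 of 3 days but with overlap. In this comparison 0.0165% of all genes were called, 2 of 12119 (the metallothionein genes Mt1 and Mt2), by edgeR, and DESeq2 and limma-voom called 2 each, while 1111 had an unadjusted p under 0.05. Among the 6, Hdac4, Nav3 and Vdac1 had an unadjusted p under that value (0.0169, 0.0178 and 0.047). Hdac4 and Nav3 were chosen from a contrast that shares the OGD-miR-29 libraries. How large a share of all genes went the same way on 3 of 3 days, or had no overlap, is not given here.

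After OGD, Hdac4, Nav3, Bace1 and Pik3r1 lay lower with miR-29 virus and Calm3 and Vdac1 higher, in a contrast that chose 2 of the 6. Log2 fold changes of miR-29 against empty virus were -1.54 ± 0.28 for Hdac4, -1.25 ± 0.25 for Nav3, -0.89 ± 0.21 for Bace1 and -0.71 ± 0.21 for Pik3r1. For Calm3 the value was 1.19 ± 0.22 and for Vdac1 0.86 ± 0.19. On the CPM scale OGD-miR-29 was 0.339 of OGD-empty for Hdac4, 0.414 for Nav3, 0.531 for Bace1 and 0.605 for Pik3r1, and 2.29 and 1.82 times OGD-empty for Calm3 and Vdac1. The groups did not overlap for any of the 6. Each gene went the same way on 3 of 3 days, with Hdac4 from -1.84 to -1.09 and Calm3 from 1.11 to 1.28. The share of all genes that did both is not given here. The fit put all 6 past the calling threshold, 4 lower and 2 higher, in a comparison where 37.1% of all genes were (17.2% higher and 19.9% lower). Since this contrast helped choose the genes, that count is a description and supports nothing. The neuron markers of the list also differed here: 4 of 8 were called lower (Map2, Rbfox3, Snap25 and Syt1) and 1 higher (Tubb3). The microglia list had 1 of 3 tested genes called higher (Aif1, 1.54 ± 0.38) and the oligodendrocyte lineage list 1 of 3 (Sox10, 1.14 ± 0.38), while 0 of 5 astrocyte and 0 of 2 fibroblast markers were called. The part of these markers and of the mitochondrial share in the members' values was not tested. A fit without rows of the mitochondrial genome was among the alternatives, and its values for this comparison are not given here.

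Under the empty virus, Hdac4, Nav3 and Bace1 were higher after OGD and Calm3 and Vdac1 lower, in a contrast that chose Bace1. The log2 fold changes were 1.08 ± 0.33 for Hdac4, 0.92 ± 0.30 for Nav3, 1.05 ± 0.27 for Bace1, 0.02 ± 0.24 for Pik3r1, -0.65 ± 0.24 for Calm3 and -0.60 ± 0.21 for Vdac1. Groups overlapped for Pik3r1 and for no other of the 6. The share of all genes without overlap in this comparison is not given here. The fit put 1 of the 6, Bace1, past the threshold, in a comparison where 5.09% of genes were (1.48% higher and 3.61% lower), and with the replicate number as a block 3 of 6 (Hdac4, Nav3 and Bace1), where 11.3% of genes were called. Bace1 was chosen from this contrast, so these counts too are descriptions that support nothing. Calm3 was at -0.36 without sham-empty replicate 2. This contrast and the one between viruses after OGD share the OGD-empty libraries.

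**Figure D2:**
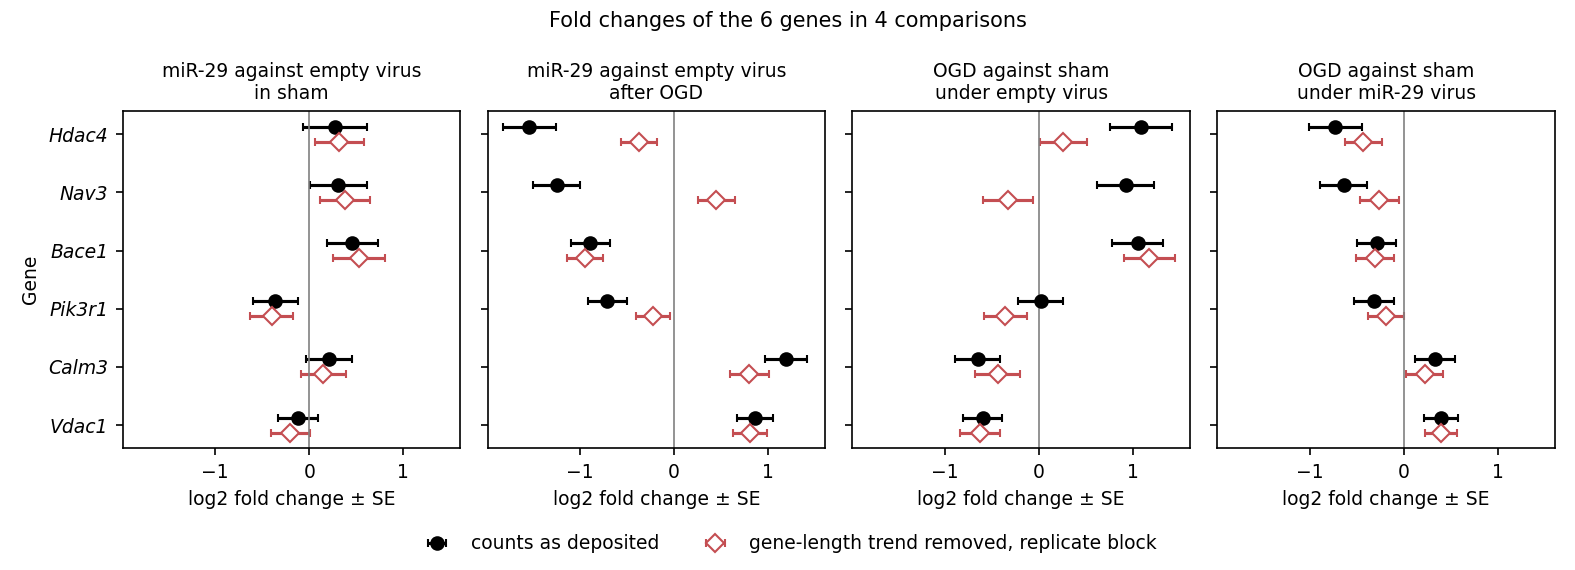
Log2 fold changes ± SE (horizontal axes) of the 6 genes in 4 comparisons, from the counts as deposited (black circles) and from a length-corrected fit, in which the trend on gene length was taken out of each library and the replicate number was a block (open diamonds). After OGD, Nav3 moves from -1.25 to 0.45 between these settings, Hdac4 from -1.54 to -0.37, and Bace1 stays at -0.89 and -0.95.

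The difference of the 2 virus effects, OGD minus sham, is given as a description. It was -1.81 ± 0.44 on the log2 scale for Hdac4, -1.56 ± 0.39 for Nav3, -1.35 ± 0.34 for Bace1 and -0.35 ± 0.32 for Pik3r1. It was 0.98 ± 0.32 for Calm3 and 0.98 ± 0.28 for Vdac1. Pik3r1 had the value closest to 0 of the 6, and its virus effects in sham and after OGD had the same sign. When OGD-miR-29 was set against sham-empty, the values were -0.46 for Hdac4, -0.33 for Nav3, 0.17 for Bace1, -0.69 for Pik3r1, 0.54 for Calm3 and 0.26 for Vdac1. Pik3r1 was thus the lowest of the 6 in this comparison, and 7.86% of all genes were lower still.

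Fold changes after OGD ran with gene length over the whole table, and between the viruses after OGD the 3 longest of the 6 genes lay within that trend. Across 11884 genes, Pearson's r of the log2 fold change with log10 gene length was -0.505 for miR-29 against empty virus after OGD and 0.45 for OGD against sham under the empty virus. It was 0.0232 for the virus effect in sham and -0.272 for OGD under miR-29 virus. These are correlations across genes that share libraries, and genes are not independent replicates. Between the viruses after OGD, the length decile of genes that holds Hdac4 and Nav3 had a median of -1.35 (quartiles -1.84 and -0.85), and Hdac4 at -1.54 and Nav3 at -1.25 lay inside those quartiles. Pik3r1 at -0.71 also lay inside the quartiles of its length decile (-1.04 and -0.21, median -0.63).

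Bace1, Vdac1 and Calm3 lay outside the quartiles of genes of like length in the same comparison. Bace1 and Vdac1 fall in the same length decile, with a median of 0.06 and quartiles of -0.37 and 0.43. Bace1 at -0.89 had 8.08% of that decile below it, and Vdac1 at 0.86 had 93.0% below it. Calm3 at 1.19 stood above the upper quartile of its decile (0.82), with 91.7% below it. Under the empty virus, Bace1's rise after OGD of 1.05 stood above 96.1% of its decile, while Hdac4 and Nav3 stood above 57.8% and 47.3% of theirs. Pik3r1 at 0.02 lay below the lower quartile of its decile there (0.11, median 0.44), with 20.5% below it.

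**Figure D3:**
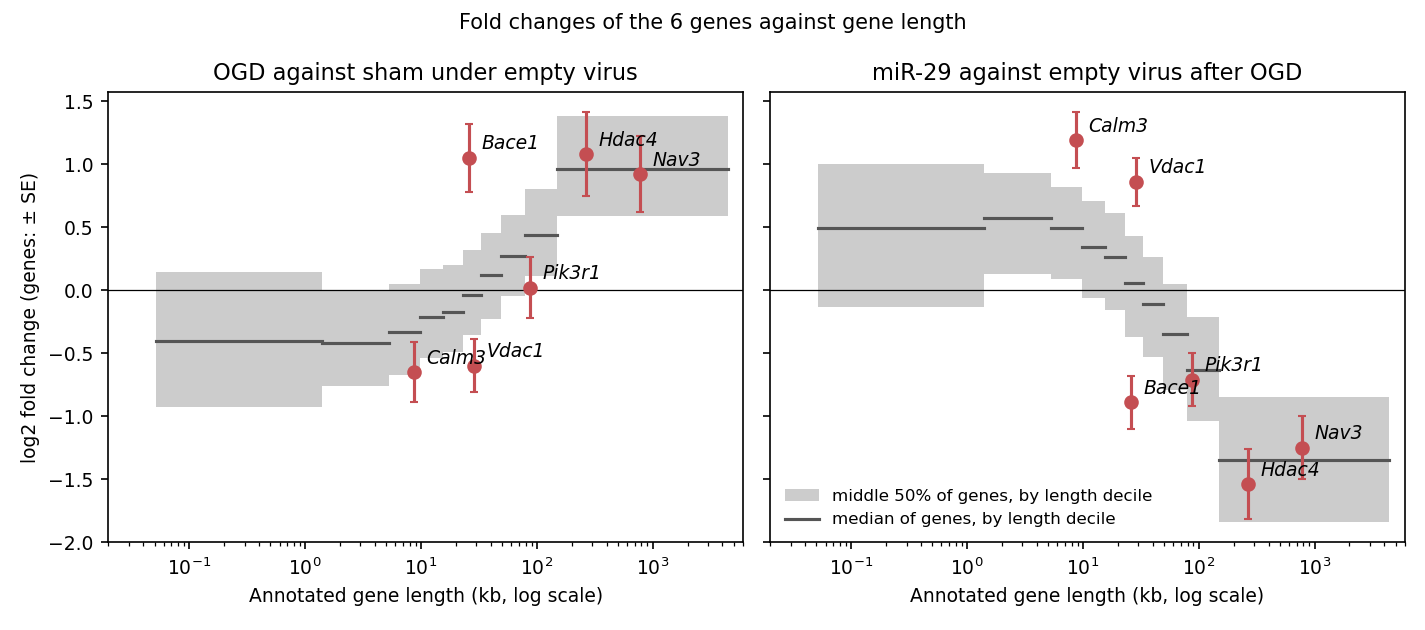
Log2 fold change (vertical axes) against annotated gene length in kb (horizontal axes, log scale) for OGD against sham under empty virus and for miR-29 against empty virus after OGD, with the 6 genes ± SE over the median (lines) and middle 50% (grey) of each length decile of all matched genes. In the comparison of viruses Hdac4, Nav3 and Pik3r1 lie inside the grey band of their decile, and Bace1, Calm3 and Vdac1 lie outside it.

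A length-corrected fit took the trend on gene length out of each library and had the replicate number as a block. In it the values between viruses after OGD were -0.37 ± 0.19 for Hdac4, 0.45 ± 0.20 for Nav3, -0.95 ± 0.19 for Bace1 and -0.22 ± 0.18 for Pik3r1. They were 0.80 ± 0.21 for Calm3 and 0.81 ± 0.18 for Vdac1. As a description, Bace1, Calm3 and Vdac1 were past the threshold in this setting, 3 of 6, where 24.4% of genes were. Nav3 changed sign. For OGD against sham under the empty virus the same setting gave 0.26 ± 0.25 for Hdac4, -0.33 ± 0.27 for Nav3 and 1.17 ± 0.27 for Bace1. Of the 6, 1 was then past the threshold (Bace1), again only a description, where 4.42% of genes were. For OGD under miR-29 virus it gave -0.43 ± 0.20 for Hdac4, -0.26 ± 0.21 for Nav3 and -0.19 ± 0.19 for Pik3r1, nearer 0 than the -0.73, -0.64 and -0.32 from the counts as deposited, and 0 of the 6 were called. In the sham contrast the setting moved none of the 6 values by more than their standard error.

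The rows of Calm3 and Bace1 cannot be assigned to these genes alone. Ptgir, the prostacyclin receptor gene, lies within 10 kb downstream of Calm3 on the opposite strand, and its row held 97.8% to 110% of the Calm3 count in every library (r of log2 CPM 0.998 over 11 libraries). Its fold changes followed those of Calm3, at 1.11 ± 0.21 between viruses after OGD and -0.64 ± 0.23 for OGD under the empty virus. Rnf214, a RING finger gene, overlaps Bace1 on the opposite strand and held 86.1% to 150% of the Bace1 count. Its values were -0.55 ± 0.20 and 0.45 ± 0.24 in the same 2 comparisons, smaller than those of Bace1. Whether strand was used in counting was not given in the sources used here, so reads of such partners cannot be told apart.

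The other members' rows are less exposed to neighbours. The antisense transcript Gm16536 within Bace1 held 14.7% of the Bace1 count over the libraries, and 9530068E07Rik, within 10 kb downstream of Vdac1 on the same strand, 14.1% of the Vdac1 count. The fold change of 9530068E07Rik between viruses after OGD was -0.12 ± 0.26, apart from the 0.86 of Vdac1. Annotated genes within Hdac4, Nav3 and Pik3r1 or 10 kb downstream are not rows of the table as used here.

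**Figure D4:**
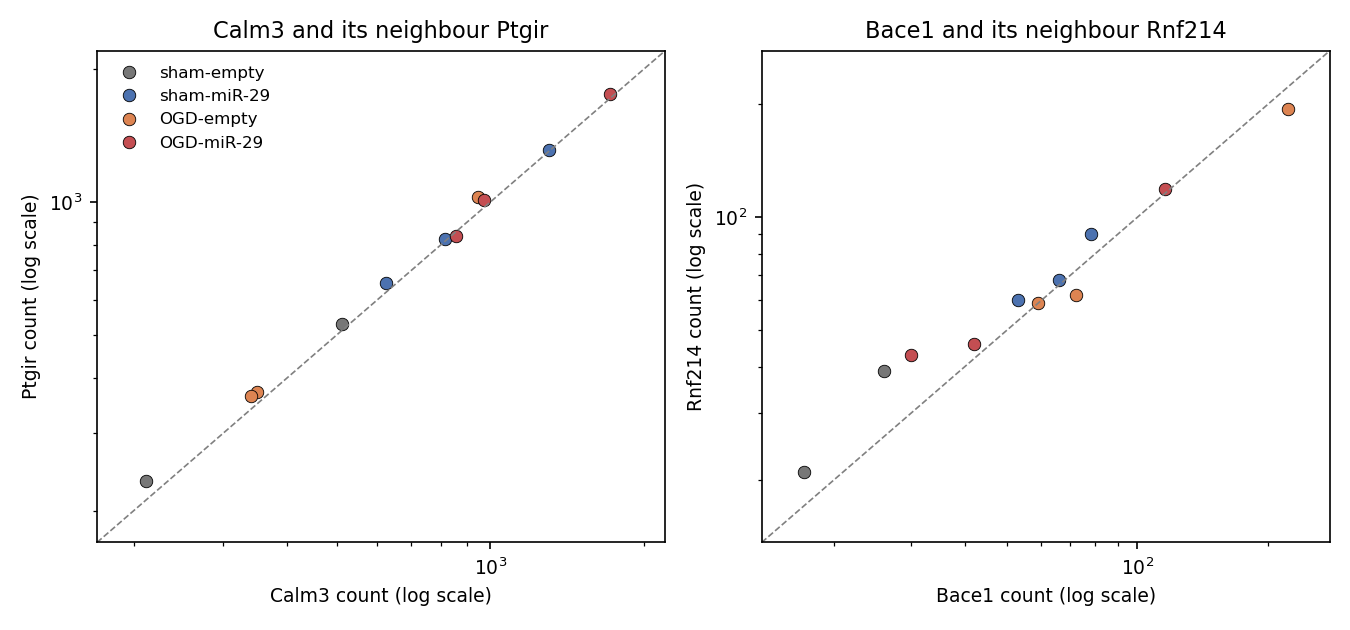
Read counts of Ptgir against Calm3 and of Rnf214 against Bace1 in each of the 11 libraries (both axes log scale, coloured by group, dashed line at equal counts). Ptgir lies on the line with Calm3, between 97.8% and 110% of its count, and Rnf214 scatters around the line from 86.1% to 150%.

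Over all genes, those with a seed match had lower values between the viruses after OGD than those without. The 1689 tested genes with a site in the longest 3′ UTR had a median log2 fold change of -0.26, with 492 called lower (29.1%) and 162 higher (9.59%). The 8385 genes without a site had a median of 0.04, with 19.5% called lower and 17.2% higher. The median was -0.33 for the 356 genes with TGGTGCTA and -0.42 for the 286 genes with 2 or more sites, the class that holds Hdac4 and Nav3. By day the median of genes with a site was -0.19, -0.26 and -0.27 (SD 0.04, n = 3).

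Genes with a site are also longer, at a median of 40.4 kb against 26.6 kb for genes with a 3′ UTR and no site. Their longest 3′ UTRs are longer too, at a median of 2699 nt against 1121 nt. No fit took out a trend on 3′ UTR length. In the length-corrected fit the median log2 fold changes came closer together: -0.06 for genes with a site, -0.12 for those with TGGTGCTA and 0.05 for those without a site. In the counts as deposited, the medians for the virus effect in sham were 0.03 with a site and 0.00 without. For OGD under miR-29 virus they were -0.08 and 0.00. For OGD under the empty virus they were 0.21 and 0.01 (0.07 and -0.03 in the length-corrected fit), so the median of genes with a site was positive. For OGD-miR-29 against sham-empty they were -0.07 and 0.00. In the counts as deposited the sited members Hdac4, Nav3, Bace1 and Pik3r1 were below the median of sited genes between viruses after OGD, and Calm3 with its TGGTGCTA match was above it. In the length-corrected fit Nav3, at 0.45, was above that median as well, and Hdac4, Bace1 and Pik3r1 were below it. Vdac1 has no match.

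**Figure D5:**
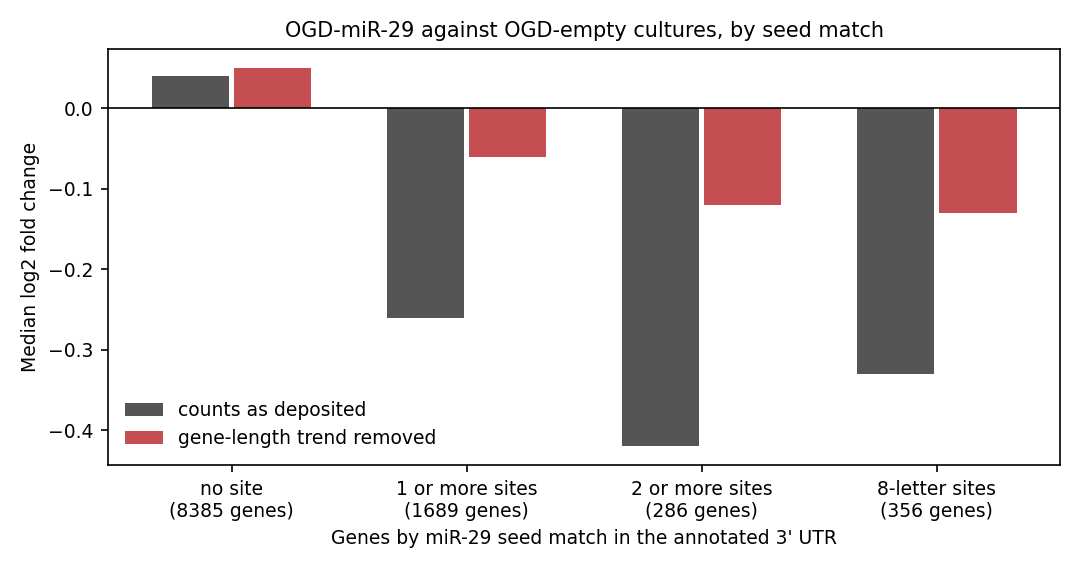
Median log2 fold change of OGD-miR-29 against OGD-empty cultures (vertical axis) for genes grouped by miR-29 seed match in the annotated 3′ UTR, from the counts as deposited (grey) and with the gene-length trend removed without a block (red). With the counts as deposited the medians run from 0.04 without a site to -0.42 with 2 or more, and with the trend removed they are closer to 0.

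The families of the 6 genes were then read in the fit of the counts as deposited, with each member left out of its own family. The trend on gene length was not taken out of these values. Between viruses after OGD, genes of 149 kb or longer had a median of -1.35, and genes of 1.4 to 5.3 kb had one of 0.57. The lengths of the family genes are not given here. The lists, and the genes named from those past the threshold, were chosen with values of these data known. Between viruses after OGD, 3 of 6 class IIa deacetylase and MEF2 genes were called lower and 0 higher, where 19.9% of all genes were called lower and 17.2% higher. These were the transcription factors Mef2a (-1.49 ± 0.23) and Mef2c (-1.23 ± 0.22) and the deacetylase Hdac9 (-1.47 ± 0.44). Hdac5 and Hdac7, of the same class as Hdac4, were at 0.28 ± 0.20 and 0.32 ± 0.26. Both other navigators were called lower, Nav1 at -1.59 ± 0.30 and Nav2 at -1.51 ± 0.47.

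In the secretase group, with 4 of 8 listed genes tested beside Bace1, 2 were called lower. These were the alpha-secretase Adam10 (-1.33 ± 0.30) and the substrate gene App (-0.58 ± 0.19). The gamma-secretase gene Ncstn was at 0.19 ± 0.34. In the PI3-kinase and AKT group beside Pik3r1, the catalytic subunit gene Pik3ca (-0.65 ± 0.23) and the regulatory subunit gene Pik3r3 (-0.58 ± 0.23) were among the genes called lower, and the kinase gene Akt1 (0.65 ± 0.25) was called higher.

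Among 7 calmodulin genes and partners beside Calm3, 1 was called higher, Calm2 (1.06 ± 0.22), and 1 lower, the calcineurin catalytic subunit gene Ppp3ca (-1.66 ± 0.32). Beside Vdac1, 3 of 6 tested genes were called higher and 0 lower: Vdac2 (0.97 ± 0.21) and the adenine nucleotide carriers Slc25a4 (1.04 ± 0.21) and Slc25a5 (1.08 ± 0.25). Under the empty virus, where 3.61% of all genes were called lower, OGD gave 2 called lower in that family, Vdac2 (-0.97 ± 0.25) and Slc25a4 (-0.94 ± 0.23), and 1 in the calmodulin family, Calm2 (-1.25 ± 0.24). In the tested contrasts, the virus effect in sham and OGD under miR-29 virus, 0 genes of any of the 6 families were called. Reads shared between these genes and their neighbours, or between similar messengers of 1 family, were not examined.

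A wider list of 30 genes reported by others as miR-29 targets, in varied tissues, was set beside the 6. In the 23 that were tested, 0 were called for the virus effect in sham (median 0.02, all genes 0.00) and 0 for OGD under miR-29 virus (median 0.02). In the latter the most distant values were those of Bcl2l11 (-1.34 ± 0.36), a BH3-only gene, and Igf1 (-1.10 ± 0.47), a growth factor gene. Between viruses after OGD 5 of the 23 were called higher and 6 lower, where 17.2% and 19.9% of all genes were, with a median of -0.12 against 0.02 for all genes. These 11 calls became 6 without OGD-empty replicate 1, 7 without OGD-miR-29 replicate 2 or 3, and 4 in the length-corrected fit. Igf1 (-1.62 ± 0.46) and the actin-regulator gene Arpc3 (1.21 ± 0.27) were farthest from 0. The other genes called higher were Bbc3, Insig1, Cdc42 and Mcl1, and the others called lower Tet1, Tet2, Tet3, Fbn1 and Lamc1. The list thus held genes on both sides, as the 6 members did.

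The 6 genes fell into blocks that varied together across the libraries. Pearson's r of log2 CPM over the 11 libraries was 0.98 for Hdac4 with Nav3, 0.84 for Hdac4 with Bace1 and 0.874 for Calm3 with Vdac1. It was -0.872 for Hdac4 with Calm3 and -0.901 for Bace1 with Vdac1. Pik3r1 followed the others less closely, with 0.591 for Hdac4, 0.616 for Nav3 and 0.477 for Bace1. These correlations are descriptive, and the points share the 4 groups, the days and the library scaling.

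Among 7819 genes with a mean count of at least 20, the most like Hdac4 were Dnm3 (r 0.984), Nav3 (0.98) and Cnksr2 (0.978). For Nav3 they were Cdkal1 (0.987), Ncam1 (0.981) and Hdac4 (0.98). The like genes of these 2 members were 222 to 775 kb long. For Bace1 they were Fam168a (0.967), Rgs17 (0.967) and Gpr160 (0.95), and for Pik3r1 Rc3h1 (0.958), Otud4 (0.956) and Gm25994 (0.943). For Calm3 they were Tuba1a (0.992), Hsp90ab1 (0.979) and Nfkbie (0.978), none longer than 7.47 kb. For Vdac1 they were Stap2 (0.981), Cct3 (0.977) and AU019823 (0.976). Rows of the mitochondrial genome and the annotated neighbours of each member were left out of its ranking. Ptgir, left out in this way, had an r of 0.998 with Calm3.

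The authors' deposited tables cover OGD-empty and OGD-miR-29, each against sham-empty. In the authors' deposited table for OGD-empty the log2 fold changes were 1.14 for Hdac4, 1.19 for Nav3, 1.23 for Bace1 and 0.23 for Pik3r1, with a false discovery rate of 0.195 for Bace1. The authors' deposited table gave 0.44 for Calm3 and 0.04 for Vdac1, opposite in sign to the -0.65 and -0.60 computed here. In the authors' deposited table for OGD-miR-29 against sham-empty the values were -0.34, -0.09, 0.37, -0.53, 1.64 and 0.89 for Hdac4, Nav3, Bace1, Pik3r1, Calm3 and Vdac1. A fit of 2 groups that kept the column without read counts as sham-empty replicate 3 came closer to the authors' deposited table over all genes than one without it, with r of 0.974 against 0.902 for OGD-empty. For Calm3 and Vdac1 that fit gave -0.08 and -0.19, against -0.68 and -0.62 without the column.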

How the data were processed

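Raw read counts by gene symbol were deposited by the authors for 12 libraries. Per the submitters' processing notes the build was mm10 (GRCm38), and the tools named there are STAR 2.5.0a, featureCounts 1.4.3-p1 and edgeR, with no stated roles. The sources used here do not give the annotation, strand setting or counting region. In the deposited table the column of sham-empty replicate 3 holds values other than read counts: it sums to 22859, and 92.5% of its values at 11944 matched symbols equal a count of annotated same-strand genes, taken over the gene plus 10 kb downstream. It was left out of every fit except those added to compare with the authors' tables. The authors also deposited 2 comparison tables whose columns, per the file headers, are log2 fold change, log2 CPM, p-value, false discovery rate and the score of a likelihood ratio test.

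Counts of 11 libraries were fitted in edgeR 4.0.16 (R 4.3.3; quasi-likelihood F test, robust, TMM, filterByExpr) with 4 group means and no block. Standard errors were taken as the size of the log2 fold change over the square root of F. Likeness used log2 CPM with a prior count of 2. Alternatives used DESeq2 1.42.0, limma 3.58.1, the replicate block, and removal of each library's trend on log10 gene length (lowess span 0.3). Others left out rows of the mitochondrial genome or used only the groups compared. The code was tested on simulated data. Gene models, 3′ UTRs and neighbours came from GENCODE M21, with 588 symbols matched through an older symbol. Counting intervals and floors were not needed, as 0 members had a count of 0.

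The 6 members and all lists were chosen with earlier results of these data known. The genes named were the members, their neighbours in the table, the 2 list members with the largest change in a comparison and the 3 genes most like each member. Others were chosen after their values were seen, namely the remaining list members and markers past the threshold and Hdac5, Hdac7 and Ncstn. Some list members are not reported here. Per the series' design text a replicate number marks a day of dissection, which pairs the samples. Deviations from group means had a correlation of -0.0898 to 0.232 between same-numbered libraries (median 0.00666, 15 pairs) and of -0.245 to 0.201 between others (30 pairs). Means of 2 or 3 libraries tie these correlations to one another. They therefore cannot settle whether the day of dissection matters.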

Additional observations from a re-analysis of the deposited data

Results flagged for a closer look

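For 5 of the 6 genes an effect ran 1 way on every day in 1 setting and the opposite way on every day in the other. The share of all genes that did so is not given here. Some daily values were small: 0.06 for the virus effect on Nav3 in sham and 0.03 for the OGD effect on Calm3 under miR-29 virus, both in replicate 1. Each difference below was not tested, since its contrasts helped choose the genes, and sham-empty has 2 days. For the effect of OGD under miR-29 virus minus that under empty virus, the log2 difference was -1.81 for Hdac4, -1.56 for Nav3, 0.98 for Calm3 and 0.98 for Vdac1. Hdac4 and Nav3 were higher after OGD on 2 of 2 days with the empty virus and lower on 3 of 3 with miR-29 virus, and Calm3 and Vdac1 the reverse. For the effect of the virus after OGD minus that in sham, the difference was -1.56 for Nav3, -1.35 for Bace1 and 0.98 for Vdac1. Nav3 and Bace1 were higher with miR-29 virus on 2 of 2 sham days and lower on 3 of 3 OGD days, and Vdac1 the reverse. In the length-corrected fit with the replicate number as a block, the difference of virus effects, which equals that of OGD effects, was 0.07 for Nav3, -0.69 for Hdac4 and 0.65 for Calm3, nearer 0 than above, while it was -1.48 for Bace1 and 1.01 for Vdac1.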

How the results depend on the processing

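Removing the gene-length trend, with the replicate block or without it, took the members called between viruses after OGD from 6 to 3, and the members with a negative difference of virus effects from 4 to 2. It turned Nav3 to 0.45 with the block and 0.45 without it after OGD, and its difference of virus effects to 0.07 and 0.00. In the setting with the block, the share of all genes called between viruses after OGD went from 37.1% to 24.4%. The median of genes with a site went from -0.26 to -0.06 in both settings. With no length trend removed, it was -0.33 for TGGTGCTA sites alone. Within the counts as deposited, the replicate block took the members called for OGD under empty virus from 1 to 3, and a fit of the groups compared alone to 0. With that block the share of all genes called there went from 5.09% to 11.3%. The block also put the difference of virus effects of Calm3 past the threshold (0.98 without it and 1.06 with it), and changed no other member's call. Leaving out 1 library gave 0 to 3 members called for OGD under empty virus (0 without either sham-empty library or OGD-empty replicate 3, 3 without OGD-empty replicate 1), 5 to 6 between viruses after OGD (5 without OGD-miR-29 replicate 2), and 6 to 9 of the wider list (6 without OGD-empty replicate 1, 7 without OGD-miR-29 replicate 2 or 3) against 11. For that list DESeq2 called 7, and the length settings 4 with the block and 3 without. The shares of all genes called with 1 library left out, or with the groups compared alone, are not given here. Hdac4 in sham was -0.04 without sham-miR-29 replicate 2. In the tested contrasts 0 of 6 members were called in every alternative run. Why these values moved was not tested. Alternatives for the wider list, and the fit that keeps the column without read counts, were chosen after seeing the data. With 17 to 222 counts of Bace1 a library, depth limits what could be detected.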
